A study of Canis lupus familiaris with 15 samples.

Results

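Integrins are receptors for the extracellular matrix, each built of an alpha and a beta subunit that cross the plasma membrane together. The subunit pair sets the ligand: ITGA6 pairs with ITGB4 or ITGB1 and ITGA3 with ITGB1 to bind laminins, ITGA2 pairs with ITGB1 to bind collagens, and ITGAV pairs with ITGB1, ITGB3 or ITGB6 to bind ligands that carry the RGD motif, such as fibronectin and vitronectin. In kidney tubule epithelium integrins sit mostly on the basal side of the cell, where they hold it to the basement membrane and pass signals inward through kinases and actin-binding adaptors. The 8 subunit genes described here are ITGA2, ITGA3, ITGA6, ITGAV, ITGB1, ITGB3, ITGB4 and ITGB6. They were taken as every probe set, the group of short probes that reports 1 transcript region, whose platform annotation gives 1 of these symbols. This gave 23 of the 43035 probe sets in the table, for 8 of the 15115 genes named there. Tests were limited to the 18 of them whose log2 intensity was 4 or more on no fewer than 3 of the 15 arrays. The other 5 (1 of ITGA2, 2 of ITGAV and 2 of ITGB6) lay between 2.15 and 3.35 on every array.

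The RNA was from MDCK (Madin-Darby canine kidney), a cell line long used as a model of tubule epithelium, and was hybridised to Affymetrix canine arrays. All cultures stood on Transwell filters, porous supports on which these cells polarise, for 7 days at 37 °C in MEM with 5% serum. The Control group (n = 4) had medium alone, and the HGF group (n = 4) had hepatocyte growth factor (HGF), the ligand of the receptor MET, at 100 ng/ml for 24 h. The HGF + PD group (n = 4) had the same HGF with a compound the labels spell PD09859 at 50 uM, and the HGF + UO group (n = 3) had that HGF plus UO126, again in the labels' spelling, at 10 uM. The series calls the compounds MAPK inhibitors, and it set out to find genes that HGF regulates through that pathway. Because their doses differ, values for the inhibitors stand side by side without a comparison between them. Cells given an inhibitor without HGF were not analysed here, and the labels do not say whether Control and HGF cultures received the inhibitors' solvent. The arrays are labelled as biological replicates with nothing on when or how the cultures were kept apart, so each p-value reflects spread among these arrays, which may in part be technical.

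The labelled cell type was checked against marker lists. All 7 epithelial markers looked for (CDH1, EPCAM, KRT8, KRT18, OCLN, CDH16 and TJP1) were measured. Their summed intensity was 111442 to 120565 on the Control arrays, 80442 to 97014 with HGF, 79809 to 99921 with HGF + PD and 85679 to 94200 with HGF + UO, so every treated array lay below every Control array. The fibroblast markers COL1A1, COL1A2, DCN and LUM, the endothelial markers TEK and VWF, the B cell marker CD79A and the platelet markers GP1BA and GP9 never reached a log2 intensity of 4. The measured markers of those cell types were 3 of 7 for fibroblasts, 3 of 5 for endothelium, 3 of 5 for leukocytes and 1 of 3 annotated for platelets (ITGA2B), and the summed intensity of each list was at most 518 on any array. Array medians ran from 40.2 to 42.5. The 3′ minus 5′ signal of actin, a measure of how complete the labelled RNA is, was 3.33 ± 0.06 (SD, n = 4) on a log2 scale in Control, 2.71 ± 0.06 (n = 4) in HGF, 3.32 ± 0.04 (n = 4) in HGF + PD and 3.40 ± 0.01 (n = 3) in HGF + UO. It therefore moved with HGF (-0.62), and the other way with PD (0.61) and with UO (0.69), each with an exact permutation p = 0.0286, the smallest these group sizes allow. The part of this shift and of the epithelial marker sums in the integrin results below was not tested.

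RNA of the integrin subunits described here was mostly higher with HGF and lower when an inhibitor was added. These subunits were chosen with earlier results of these data known. Their counts beside all probe sets, here and below, are therefore a description and no independent support for a pattern of integrins in general. With HGF against Control, 12 of the 18 tested probe sets were higher and 1 was lower at an adjusted p under 0.05 (limma, Benjamini-Hochberg over the 24904 probe sets kept). Over all probe sets kept, 26.3% were higher and 29.2% lower. The median change of the 18 was 0.77 on the log2 scale, beside -0.02 over all probe sets. With HGF + PD against HGF, 0 of 18 were higher and 14 were lower, where 30.3% of all probe sets were higher and 25.1% lower, and the median change was -1.73 beside -0.01. With HGF + UO against HGF, 0 of 18 were higher and 14 were lower, where 27.2% of all probe sets were higher and 25.2% lower, and the median change was -1.41 beside 0.005. The 3 comparisons share the 4 HGF arrays, and several of the 18 probe sets report the same gene, so the calls are not independent. Of 7 other integrin subunits measured, 0 were higher and 3 were lower with HGF. With each inhibitor against HGF, 3 of those other subunits were higher and 0 were lower. The 12 higher with HGF and the 14 lower with each inhibitor include 1 ITGA6 probe set (Cfa.2219.1.A1_at) that passed the filter through its HGF arrays. It had to differ between these groups, so its calls are no support for the pattern. In a culture, fewer cells that carry a transcript and less of it per cell cannot be told apart.

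**Figure D1:**
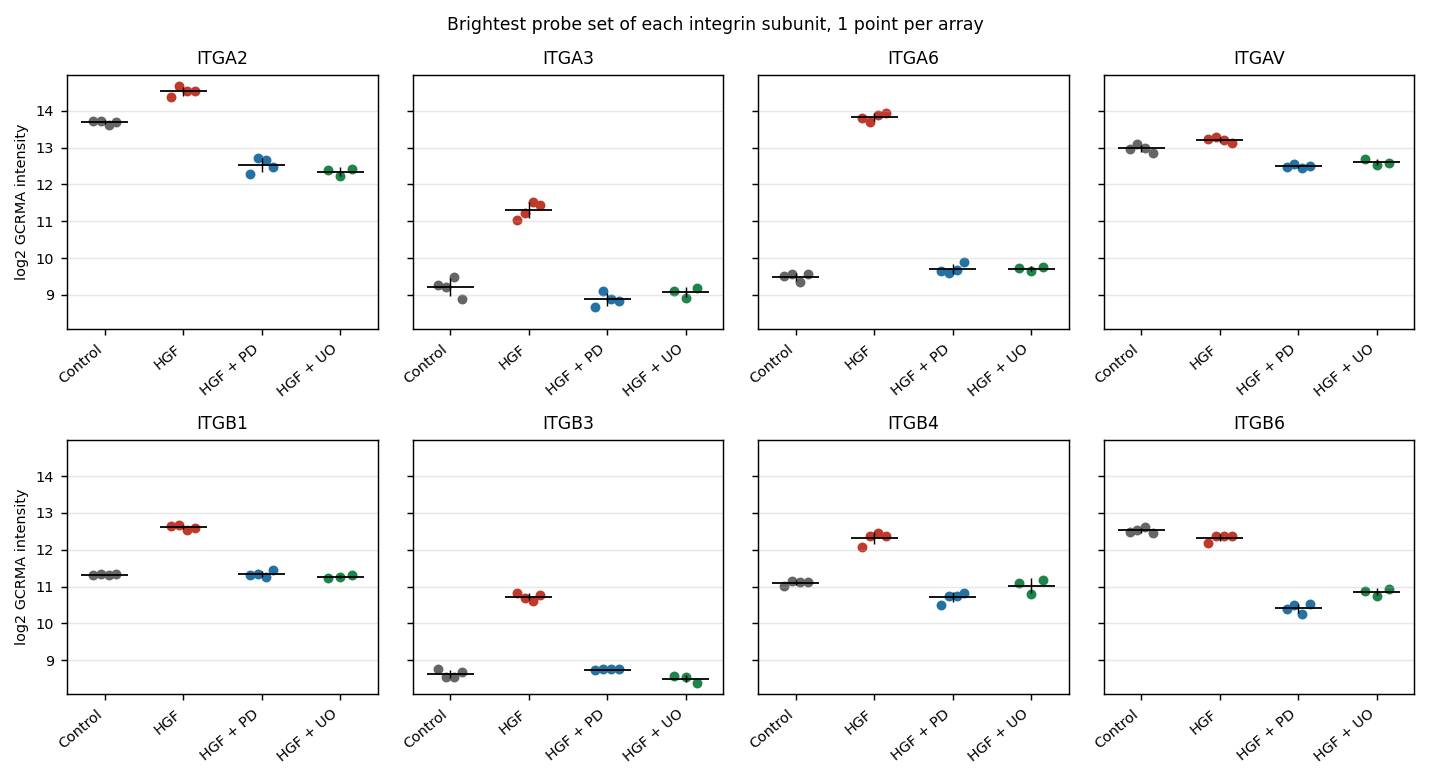
Log2 GCRMA intensity of the brightest probe set of each of the 8 integrin subunit genes (y axis) in Control (n = 4), HGF (n = 4), HGF + PD (n = 4) and HGF + UO (n = 3); points are arrays, horizontal bars group means and vertical bars 1 SD. ITGA6 stands at 13.71 to 13.94 with HGF and at 9.34 to 9.88 in the other groups, while ITGB6 is at 12.18 to 12.63 in Control and HGF and at 10.25 to 10.93 with either inhibitor; levels of different genes are not comparable on arrays.

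ITGA6, the alpha subunit of the laminin receptors that anchor epithelium to its basement membrane, changed most. Its brightest probe set (CfaAffx.20184.1.S1_s_at) read 9.50, 9.57, 9.34 and 9.57 on the Control arrays and 13.79, 13.71, 13.90 and 13.94 on the HGF arrays. It read 9.66, 9.58, 9.67 and 9.88 with HGF + PD and 9.73, 9.64 and 9.77 with HGF + UO. All HGF arrays thus lay far above the arrays of the 3 other groups, and the arrays of both inhibitors overlapped with each other just above Control. The rise with HGF was 4.34 ± 0.07 (SE), a 20.2-fold difference with adjusted p = 1.37e-14, and it ranked 88 among the 24904 probe sets by size. Against HGF alone, ITGA6 fell by 4.14 ± 0.07 with PD (17.6-fold, adjusted p = 1.91e-14) and by 4.12 ± 0.08 with UO (17.4-fold, adjusted p = 4.34e-14).

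A companion ITGA6 probe set (Cfa.19343.1.S1_s_at) gave nearly the same picture. Its arrays read 8.84, 8.51, 8.33 and 8.42 in Control, 12.61, 12.61, 12.91 and 12.93 in HGF, 8.42, 8.60, 8.60 and 8.64 in HGF + PD, and 8.70, 8.71 and 8.91 in HGF + UO. Its change was 4.24 ± 0.11 with HGF, -4.20 ± 0.11 with PD and -3.99 ± 0.12 with UO, with adjusted p of 7.02e-13, 7.66e-13 and 3.24e-12. Another ITGA6 probe set (Cfa.2219.1.A1_at) was dark without HGF, at 3.13, 3.45, 3.06 and 3.30 in Control, and bright with it, at 10.77, 10.70, 10.76 and 10.70. With an inhibitor it was dark again on most arrays, at 4.13, 3.22, 3.04 and 3.29 in HGF + PD and 4.02, 3.40 and 2.98 in HGF + UO. This probe set passed the filter through its HGF arrays, so it had to differ between groups, and the size of its change rests on the authors' background estimate. The change read 7.50 ± 0.22 as deposited and 5.39 once 32 was added to every intensity, with -7.31 and -5.33 for PD and -7.27 and -5.32 for UO.

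The remaining ITGA6 probe set (Cfa.6249.1.A1_at) did not follow the others. It read 7.10, 7.09, 7.08 and 7.08 in Control, 7.28, 7.58, 7.12 and 7.08 in HGF, 7.21, 7.08, 6.97 and 7.06 in HGF + PD, and 7.07, 7.09 and 7.26 in HGF + UO. The groups overlapped in all 3 comparisons. Some readings were identical between groups, at 7.08258 on Control replicates 3 and 4, HGF replicate 4 and HGF + PD replicate 2. Whether this probe set detects ITGA6 RNA above its background was not tested. Its difference with HGF was 0.17 ± 0.09, with a 95% interval from -0.03 to 0.38 (adjusted p = 0.134), and its differences with PD and UO were -0.19 ± 0.09 (adjusted p = 0.110) and -0.12 ± 0.10 (adjusted p = 0.338). The PD difference passed the threshold with each array centred on its median (-0.27, adjusted p = 0.0369) and without HGF replicate 4 (-0.25, adjusted p = 0.0428).

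ITGA3, which pairs with ITGB1 to bind laminin at lateral and basal cell borders, had 1 probe set (CfaAffx.25985.1.S1_s_at). It read 9.26, 9.21, 9.47 and 8.89 in Control and 11.03, 11.23, 11.52 and 11.44 with HGF. With an inhibitor it read 8.68, 9.11, 8.89 and 8.83 (HGF + PD) and 9.11, 8.92 and 9.19 (HGF + UO). HGF arrays were above all others, and Control arrays overlapped with those of both inhibitors. ITGA3 rose by 2.10 ± 0.13 with HGF (4.29-fold, adjusted p = 6.26e-09), fell by 2.43 ± 0.13 with PD (adjusted p = 1.32e-09) and fell by 2.23 ± 0.14 with UO (adjusted p = 9.00e-09).

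ITGB4, the beta subunit with a long cytoplasmic tail that joins ITGA6 to keratin filaments at hemidesmosomes, rose with HGF on both of its probe sets. The brightest one (Cfa.6403.1.A1_at) read 11.02, 11.15, 11.13 and 11.13 in Control and 12.09, 12.37, 12.45 and 12.39 with HGF, with no overlap. It read 10.51, 10.75, 10.74 and 10.83 with HGF + PD, where all 4 arrays were below Control. With HGF + UO it read 11.09, 10.80 and 11.18, a range that overlapped with Control. The changes were 1.22 ± 0.09 with HGF (2.32-fold, adjusted p = 5.29e-08), -1.62 ± 0.09 with PD (adjusted p = 2.59e-09) and -1.30 ± 0.10 with UO (adjusted p = 7.22e-08). The other ITGB4 probe set (CfaAffx.8298.1.S1_s_at) read 11.04, 11.09, 11.20 and 10.85 in Control, 11.47, 11.76, 11.92 and 11.87 in HGF, 10.08, 10.69, 10.41 and 10.32 in HGF + PD, and 10.98, 10.68 and 10.99 in HGF + UO. It moved the same way by less, with 0.71 ± 0.13 for HGF, -1.38 ± 0.13 for PD and -0.87 ± 0.14 for UO (adjusted p of 0.000266, 3.91e-07 and 9.71e-05).

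ITGA2, the alpha subunit of a main epithelial collagen receptor, fell with the inhibitors by more than it rose with HGF. Its brightest probe set (CfaAffx.28191.1.S1_s_at) read 13.73, 13.72, 13.62 and 13.71 in Control and 14.37, 14.67, 14.55 and 14.53 in HGF. It read 12.30, 12.71, 12.66 and 12.47 in HGF + PD and 12.41, 12.22 and 12.43 in HGF + UO. HGF arrays were above Control, and every array with an inhibitor was below Control. A companion probe set (CfaAffx.28187.1.S1_at) gave 13.30 to 13.39 in Control, 14.09 to 14.25 in HGF, 11.90 to 12.31 in HGF + PD and 11.67 to 12.03 in HGF + UO, in the same order. That probe set changed by 0.82 ± 0.09 with HGF (adjusted p = 2.25e-06), by -2.09 ± 0.09 with PD (adjusted p = 1.15e-10) and by -2.27 ± 0.10 with UO (adjusted p = 1.31e-10). The remaining ITGA2 probe set, whose identifier differs from the brightest one only in its ending, stayed between 2.84 and 3.09 and was not tested.

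ITGB1 is the common beta subunit that pairs with ITGA2, ITGA3, ITGA6 and ITGAV. Its brightest probe set (CfaAffx.6707.1.S1_s_at) read 11.31, 11.33, 11.31 and 11.34 in Control and 12.66, 12.67, 12.54 and 12.60 in HGF. With HGF + PD it read 11.32, 11.34, 11.25 and 11.45, and with HGF + UO 11.22, 11.27 and 11.32. The HGF arrays stood alone and the other 3 groups overlapped. ITGB1 rose by 1.30 ± 0.04 with HGF (2.45-fold, adjusted p = 1.07e-11), fell by 1.28 ± 0.04 with PD (adjusted p = 1.22e-11) and fell by 1.35 ± 0.05 with UO (adjusted p = 1.90e-11). A dimmer ITGB1 probe set (CfaAffx.6707.1.S1_at) read 8.94, 8.91, 8.87 and 8.79 in Control, 8.81, 9.19, 8.88 and 8.64 in HGF, 8.83, 8.69, 8.66 and 8.49 in HGF + PD, and 8.79, 9.23 and 8.73 in HGF + UO. Its arrays overlapped between all groups compared. Its difference with HGF was 0.00 ± 0.12, with a 95% interval from -0.26 to 0.27 that leaves out the rise of the other probe set, and its differences with PD (-0.21 ± 0.12) and UO (0.04 ± 0.13) did not pass the threshold.

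ITGB3, the beta subunit of the vitronectin receptor that ITGAV forms with it, had 1 probe set (Cfa.3641.1.S1_s_at). It read 8.75, 8.53, 8.54 and 8.67 in Control and 10.83, 10.69, 10.61 and 10.76 with HGF. The arrays read 8.72, 8.75, 8.75 and 8.75 with HGF + PD and 8.57, 8.53 and 8.38 with HGF + UO. HGF arrays were above all others by a wide gap. ITGB3 rose by 2.10 ± 0.06 with HGF (4.29-fold, adjusted p = 3.24e-12). Against HGF alone it fell by 1.98 ± 0.06 with PD (adjusted p = 6.15e-12) and fell by 2.23 ± 0.07 with UO (adjusted p = 5.17e-12). ITGB3 is also the beta subunit of the platelet fibrinogen receptor, in which ITGA2B is its partner. ITGA2B had a mean log2 intensity of 6.30 without HGF and 6.25 with it, and of 6.20 once PD was added or 6.37 once UO was added, with no difference past the threshold (adjusted p from 0.183 to 0.587), while the platelet markers GP1BA and GP9 were below 4 on every array.

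ITGAV, the alpha subunit of the RGD-binding receptors, changed least among the subunits that rose. Its brightest probe set (Cfa.18044.1.S1_at) read 12.96, 13.11, 12.99 and 12.86 in Control and 13.24, 13.29, 13.20 and 13.13 in HGF. It read 12.48, 12.55, 12.45 and 12.50 in HGF + PD and 12.70, 12.54 and 12.57 in HGF + UO. HGF did not overlap with Control or with either inhibitor, but the lowest HGF array (replicate 4) and the highest Control array (replicate 2) differed by less than the spread within either group. ITGAV rose by 0.24 ± 0.05 with HGF (1.18-fold, adjusted p = 0.00158), fell by 0.72 ± 0.05 with PD (adjusted p = 2.89e-08) and fell by 0.61 ± 0.06 with UO (adjusted p = 4.60e-07). A companion probe set (CfaAffx.22595.1.S1_s_at) changed by 0.37 ± 0.10, -0.89 ± 0.10 and -0.73 ± 0.10 in the same 3 comparisons (adjusted p of 0.00487, 1.97e-06 and 3.19e-05). A dim one (CfaAffx.22655.1.S1_at) lay between 4.14 and 4.48 on all arrays, just above the filter, and its differences of -0.04, 0.08 and 0.04 did not pass the threshold. The other 2 ITGAV probe sets stayed below the filter.

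ITGB6, an epithelial beta subunit whose receptor with ITGAV binds and activates latent TGF-beta, was the exception among the 8 genes. Its brightest probe set (CfaAffx.15538.1.S1_at) read 12.48, 12.53, 12.63 and 12.47 in Control and 12.18, 12.38, 12.37 and 12.38 in HGF. It read 10.38, 10.49, 10.25 and 10.52 in HGF + PD and 10.89, 10.75 and 10.93 in HGF + UO. All HGF arrays were a little below Control, and all arrays with an inhibitor were far below both. The difference with HGF was -0.20 ± 0.07 (adjusted p = 0.0234), and it missed the threshold without Control replicate 3 (-0.16, adjusted p = 0.0760) or without HGF replicate 1 (-0.15, adjusted p = 0.0803). Against HGF, ITGB6 fell by 1.92 ± 0.07 with PD (3.77-fold, adjusted p = 1.38e-11) and by 1.47 ± 0.07 with UO (2.77-fold, adjusted p = 5.85e-10).

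A companion ITGB6 probe set (CfaAffx.15557.1.S1_s_at) read 10.57, 10.41, 10.46 and 10.59 in Control and 10.46, 10.50, 10.52 and 10.62 in HGF, which overlapped. It read 8.65, 8.65, 8.40 and 8.99 in HGF + PD and 9.00, 8.75 and 8.85 in HGF + UO, below both. Its difference with HGF was 0.01 ± 0.10 (95% interval -0.20 to 0.23), so the small fall of the brightest probe set with HGF was not seen on it. It fell by 1.85 ± 0.10 with PD (adjusted p = 1.07e-09) and fell by 1.66 ± 0.11 with UO (adjusted p = 9.64e-09). A dimmer probe set (CfaAffx.15557.1.S1_at) stood between 5.15 and 5.35 on 14 arrays and at 5.92 on HGF + UO replicate 2, and none of its differences passed the threshold. The other 2 were below the filter.

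**Figure D2:**
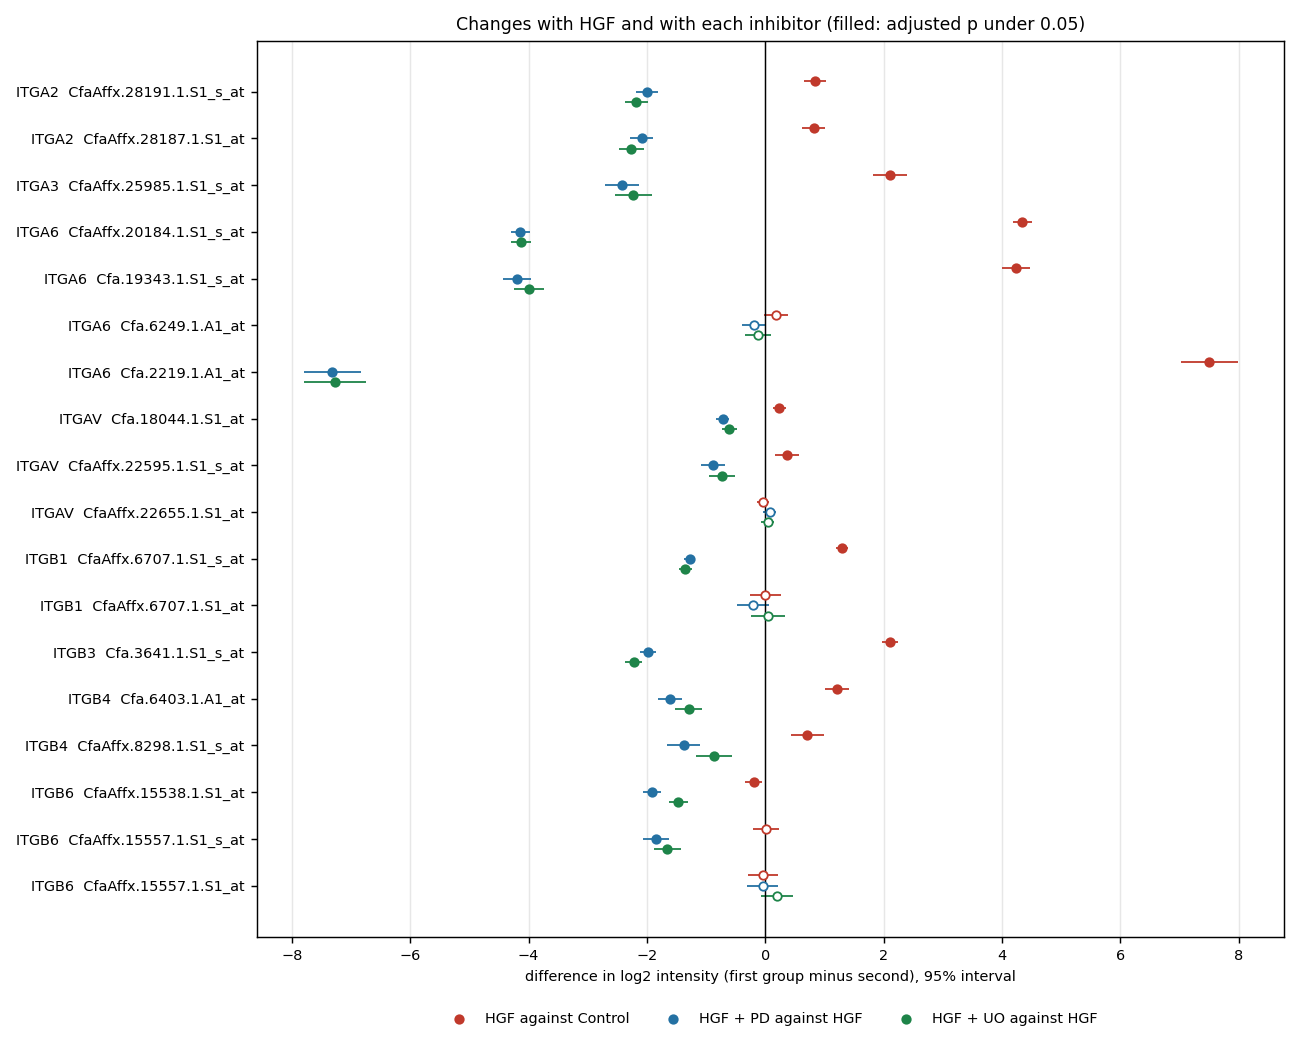
Difference in log2 intensity (x axis) with its 95% interval for the 18 tested integrin probe sets, for HGF against Control (red), HGF + PD against HGF (blue) and HGF + UO against HGF (green), with filled points where the adjusted p was under 0.05. The 12 filled red points above 0 run from 0.24 (ITGAV) to 7.50 (an ITGA6 probe set dark in Control and kept through its HGF arrays). All filled blue and green points are below 0. The 4 probe sets with open points in all 3 colours are 1 each of ITGA6, ITGAV, ITGB1 and ITGB6.

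Set against Control, the subunits differed in where they stood in the inhibited cultures. With HGF + PD against Control, 1 of 18 probe sets was higher and 8 were lower, where 20.2% of all probe sets were higher and 14.3% lower. With HGF + UO against Control, 0 of 18 were higher and 6 were lower, where 11.9% of all probe sets were higher and 10.3% lower. The median change of the 18 was -0.27 for HGF + PD and -0.10 for HGF + UO, beside -0.02 and -0.01 over all probe sets. These comparisons share the Control arrays with each other.

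ITGB6 was lowest relative to Control, by -2.11 ± 0.07 with HGF + PD (4.33-fold, adjusted p = 1.09e-10) and -1.67 ± 0.07 with HGF + UO (3.18-fold, adjusted p = 4.59e-09). ITGA2 was also lower, by a log2 difference of -1.16 ± 0.08 with HGF + PD (adjusted p = 1.65e-07) and -1.35 ± 0.09 with HGF + UO (adjusted p = 1.93e-07). ITGAV was lower to a smaller extent, with -0.49 ± 0.05 (adjusted p = 8.21e-06) and -0.38 ± 0.06 (adjusted p = 0.000268). Its companion probe set was lower by -0.52 ± 0.10 and -0.37 ± 0.10, and the latter call was lost without Control replicate 2 (-0.33, adjusted p = 0.0614), without Control replicate 3 (-0.35, adjusted p = 0.0539) and without HGF + UO replicate 2 (-0.29, adjusted p = 0.109). For ITGA2, ITGAV and ITGB6 both companion probe sets named above were thus lower with each inhibitor than in cells that had no HGF.

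ITGB4 was lower than Control with HGF + PD on both probe sets, at -0.40 ± 0.09 (adjusted p = 0.00460) and -0.67 ± 0.13 (adjusted p = 0.00109). With HGF + UO its differences were -0.08 ± 0.10 (95% interval -0.30 to 0.14) and -0.16 ± 0.14 (-0.46 to 0.14), and neither passed the threshold. Whether the inhibitors differed for ITGB4 was not tested, because the doses differ.

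ITGB1 and ITGB3 lay close to Control with either inhibitor, and ITGA3 did not pass the threshold with either. For ITGB1 the difference was 0.02 ± 0.04 (95% interval -0.08 to 0.11) with HGF + PD and -0.05 ± 0.05 (-0.16 to 0.05) with HGF + UO. For ITGB3 it was 0.12 ± 0.06 (-0.02 to 0.26) and -0.13 ± 0.07 (-0.28 to 0.02). The ITGA3 differences were -0.33 ± 0.13 (95% interval -0.62 to -0.04, adjusted p = 0.0728) and -0.13 ± 0.14 (-0.44 to 0.18, adjusted p = 0.603). The interval with HGF + PD leaves out 0, and its size is near that of some differences called lower above. This HGF + PD difference passed the threshold after quantile normalization (-0.39, adjusted p = 0.0295) and after median centring (-0.36, adjusted p = 0.0283). It also passed without Control replicate 4 (-0.44, adjusted p = 0.0182) and without HGF + PD replicate 2 (-0.41, adjusted p = 0.0361).

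ITGA6 was the 1 subunit above Control with an inhibitor, by a small amount. Its brightest probe set differed by 0.20 ± 0.07 with HGF + PD (adjusted p = 0.0487) and by 0.22 ± 0.08 with HGF + UO (adjusted p = 0.0710). The PD call was lost in several settings, among them quantile normalization (0.14, adjusted p = 0.105), and when Control replicate 1, 2 or 3 or HGF + PD replicate 1, 3 or 4 was left out (0.14 to 0.23, adjusted p from 0.0530 to 0.156). The UO difference passed the threshold under quantile normalization (0.21, adjusted p = 0.0375) and median centring (0.21, adjusted p = 0.0444). On the companion probe set the differences were 0.04 ± 0.11 and 0.25 ± 0.12, and the latter passed the threshold without Control replicate 1 (0.36, adjusted p = 0.0256).

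**Figure D3:**
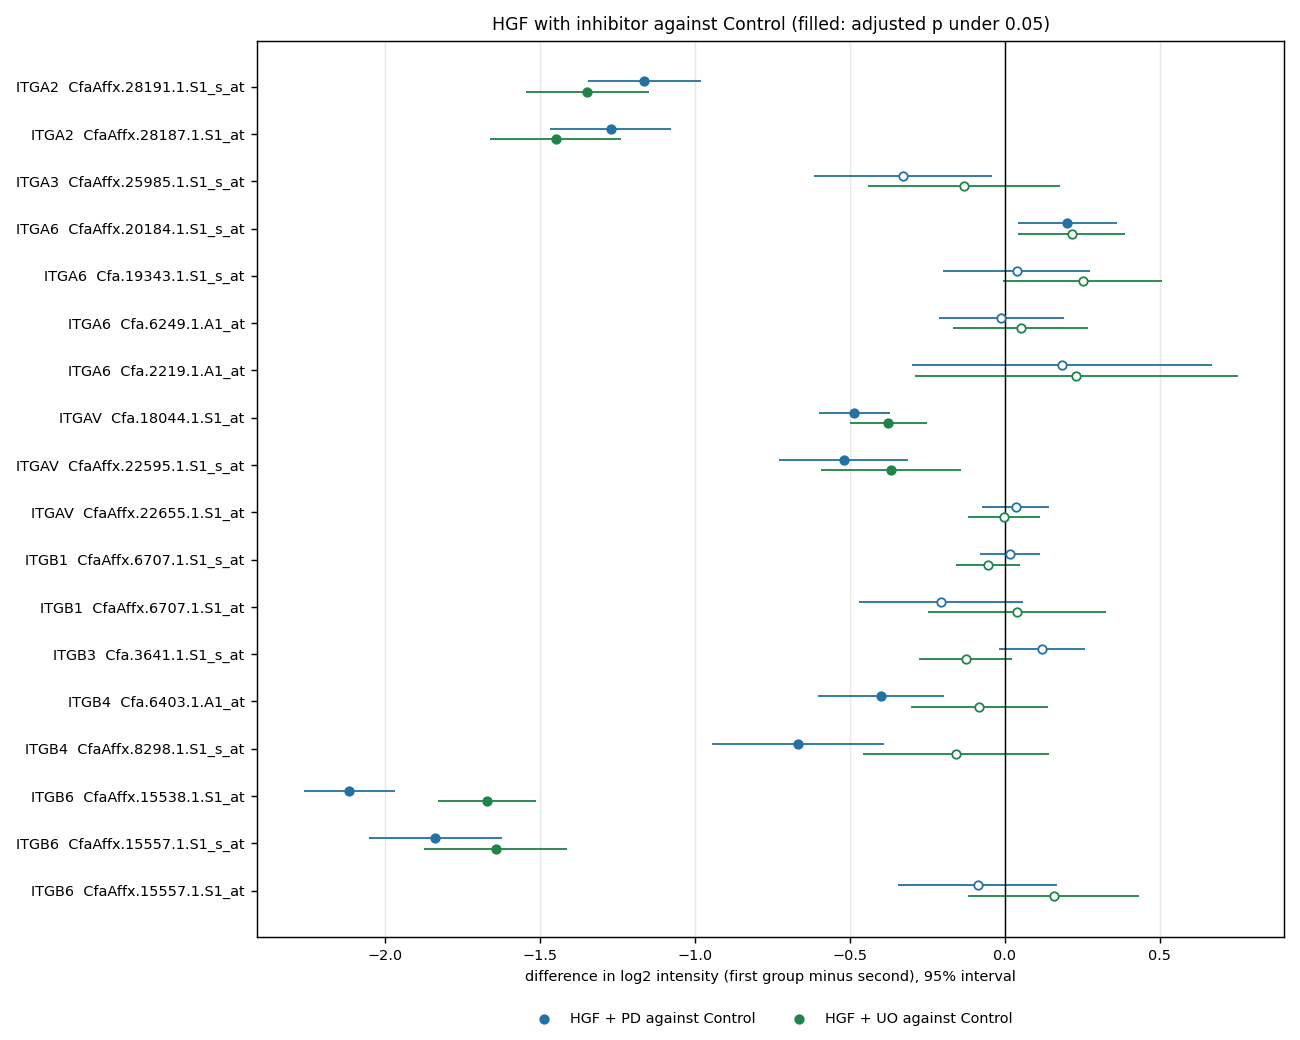
Difference in log2 intensity from Control (x axis) with its 95% interval for the 18 tested integrin probe sets, for HGF + PD (blue) and HGF + UO (green), with filled points where the adjusted p was under 0.05. ITGB6 at -2.11 and -1.67 and ITGA2 at -1.16 and -1.35 lie farthest below 0, while the brightest ITGB1 probe set at 0.02 and -0.05 sits on it.

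Probe sets of the same gene were then compared by the difference between their log2 intensities on each array, which holds only unequal change and not level. Over 6 genes with several tested probe sets, this gave 10 pairs and 30 comparisons, of which 18 passed a two-sided exact permutation test at an adjusted p under 0.05. Each of the 18 had an exact permutation p = 0.0286, the smallest that 4 against 4 or 3 against 4 arrays allow, and an adjusted p = 0.0476. Of the 18, 6 were pairs to the ITGA6 probe set that was dark in Control or to the dim ITGAV probe set near the filter, where a gap restates the change of 1 probe set. Without these 2 pairs, a choice made after the values were seen, 12 of 24 comparisons had an exact permutation p = 0.0286, and with an adjusted p = 0.0571 none of them passed. The count also fell to 0 without any 1 of the HGF or HGF + UO arrays, so the gaps below are given as sizes. In ITGA6 the change of the brightest probe set with HGF, less that of Cfa.6249.1.A1_at, was 4.16. Less that of the probe set dark in Control it was -3.16, which had to differ and became -1.11 with 32 added to every intensity. With PD and UO the ITGA6 gaps were -3.95 and -4.00 to Cfa.6249.1.A1_at, and 3.18 and 3.15 to the dark one (1.25 and 1.25 with 32 added). Some readings of Cfa.6249.1.A1_at were identical between groups. Whether the gaps to it also restate the change of 1 probe set was not tested.

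In ITGB1 the gap between its probe sets was 1.29 with HGF, -1.07 with PD and -1.39 with UO, so about the whole change of the brightest probe set was missing from its partner. In ITGB4 both probe sets moved together but unequally, with gaps of 0.50, -0.24 and -0.43, and the PD gap was -0.15 without HGF + PD replicate 2. ITGB6 gave gaps to its dim probe set of -1.87 with PD and -1.67 with UO, and a gap of 0.18 to its companion with UO, with an adjusted p = 0.214 by the exact test after quantile normalization (0.17) and 0.204 with 32 added (0.14). The companion pairs of ITGA2 (0.02, 0.09 and 0.09), ITGA6 (0.10, 0.06 and -0.14) and ITGAV (-0.13, 0.17 and 0.12) had an exact permutation p of at least 0.143 in each comparison. Identifiers that end in _s_at mark probe sets whose probes match several transcripts, and which transcripts each probe set detects was not tested.

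**Figure D4:**
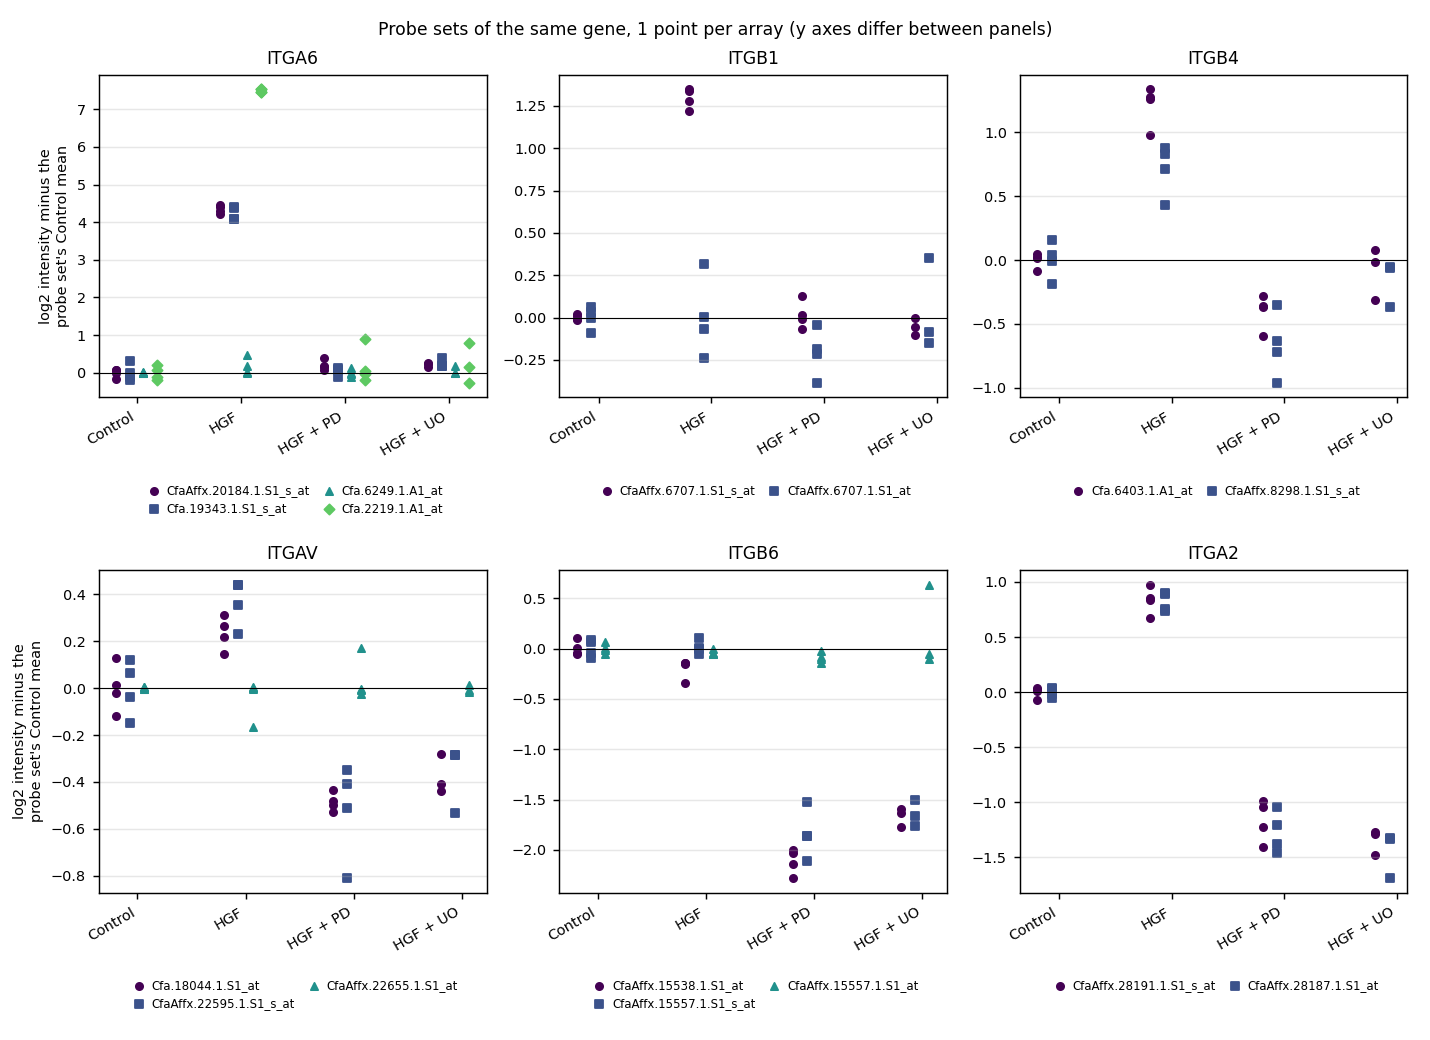
Log2 intensity of each tested probe set minus its own Control mean (y axis, scaled separately in each panel) for the 6 genes with several tested probe sets; points are arrays of Control, HGF, HGF + PD and HGF + UO. The ITGA6 probe sets end near 7.50, 4.34, 4.24 and 0.17 with HGF, the ITGB1 probe sets split into 1.30 and 0.00, and the companion probe sets of ITGA2 overlie each other.

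By their brightest probe sets, subunits that form 1 receptor did not change by equal amounts. This was measured on the brightest probe sets of 7 partner pairs, chosen after the values were seen, as the difference between the log2 intensities of alpha and beta subunit on each array. All 21 comparisons (7 pairs with HGF, PD and UO) had an exact permutation p = 0.0286 and an adjusted p = 0.0286, the smallest possible. As the pairs were chosen with the changes known, these p-values are no independent support, and the gaps are given as sizes. The UO comparisons could not pass with an HGF or HGF + UO array left out, and the ITGA3 gap to ITGB1 with HGF was 0.69 without Control replicate 4 (adjusted p = 0.0571, exact test). ITGA6 rose by 3.12 more than ITGB4 and by 3.04 more than ITGB1 with HGF. ITGA3 rose by 0.80 more than ITGB1. ITGA2 and ITGAV changed by less than ITGB1, with differences of -0.46 and -1.06. ITGAV also changed by less than ITGB3 (-1.87) and by more than ITGB6 (0.43). For scale, the gap with HGF between probe sets of the same gene was 1.29 for ITGB1 and 0.50 for ITGB4. The ITGA3, ITGA2 and ITGAV gaps to ITGB1 and the ITGAV gap to ITGB6 were smaller in size than that of ITGB1. The dimmer ITGB1 probe set, which changed by 0.00 with HGF, was not used for these pairs.

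With the inhibitors the ITGA6 change minus that of ITGB4 was -2.52 for PD and -2.82 for UO, and minus that of ITGB1 it was -2.86 and -2.77. ITGA2 fell farther than ITGB1 with both (-0.72 and -0.83), although it had risen less. ITGA3 also fell farther than ITGB1 (-1.15 and -0.88). ITGAV fell less than ITGB1 (0.56 and 0.74), less than ITGB3 (1.26 and 1.62) and less than ITGB6 (1.20 and 0.86). For scale, the gap between the probe sets of ITGB1 was -1.07 with PD and -1.39 with UO. The ITGA2 and ITGAV gaps to ITGB1 were smaller in size than this with both inhibitors, as were the ITGA3 gap to ITGB1 and the ITGAV gap to ITGB6 with UO. Probe sets differ in how steeply they answer to RNA, so these differences describe signal on the array and not receptor amounts.

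Of the integrin subunits outside the 8, 17 were annotated and 7 could be measured. Of these 7 genes, 0 were higher and 3 were lower with HGF, where 28.0% of all 10287 genes (each by its brightest probe set) were higher and 27.7% lower. With PD, 3 were higher and 0 lower, where 29.9% of genes were higher and 25.8% lower, and with UO likewise 3 and 0, where 26.2% were higher and 26.3% lower. ITGB8, an alternative partner of ITGAV, fell by 2.48 ± 0.14 with HGF (adjusted p = 2.13e-09) and was higher by 0.84 ± 0.14 with PD and by 1.19 ± 0.15 with UO than with HGF alone. ITGA1, the other alpha subunit of epithelial collagen receptors, fell by 1.04 ± 0.11 with HGF (adjusted p = 1.26e-06) and was higher by 0.86 ± 0.11 with PD and 1.27 ± 0.12 with UO. ITGB5, a further partner of ITGAV outside the naming rule and chosen after its values were seen, read -0.37 ± 0.07, 0.63 ± 0.07 and 0.44 ± 0.08. The median change of the 7 was -0.05 with HGF, -0.03 with PD and 0.12 with UO, beside -0.01, -0.02 and 0.00 over all genes.

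Among 19 measured ligands of these receptors, 6 were higher and 4 lower with HGF, 4 and 9 with PD, and 4 and 7 with UO, with medians of 0.04, -0.24 and -0.06. Over all genes the shares were 28.0% higher and 27.7% lower with HGF, 29.9% and 25.8% with PD, and 26.2% and 26.3% with UO, so the HGF counts of the ligands were near the background. LAMA3, the alpha chain of the laminin that ITGA6 with ITGB4 and ITGA3 with ITGB1 bind in epithelium, rose by 4.35 ± 0.12 with HGF and changed by -4.69 ± 0.12 with PD and -4.55 ± 0.13 with UO (adjusted p of 1.45e-12, 7.42e-13 and 2.68e-12). Its beta chain partner LAMB3, chosen after its values were seen, changed by 1.75 ± 0.08, -2.81 ± 0.08 and -2.99 ± 0.09. FN1 (fibronectin, a ligand of the ITGAV receptors), also chosen so, changed by 0.96 ± 0.14, -1.48 ± 0.14 and -0.98 ± 0.15. Other ligands did not follow, such as COL4A1, which read -0.23 ± 0.11, -0.32 ± 0.11 and 0.62 ± 0.12. Other probe sets of LAMB3 and FN1 are not described here, so whether any change likewise is not shown. EDIL3, a secreted RGD protein, rose by 4.60 ± 0.18 from below the filter in Control, which became 2.70 with 32 added, and changed by -3.47 ± 0.18 with PD and -3.65 ± 0.19 with UO (-2.42 with 32 added).

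Of the 5 measured chains of other laminins, LAMA1, LAMA4 and LAMB2 passed the threshold in none of these 3 comparisons. LAMC1, the gamma chain of most laminins, fell by 0.62 ± 0.10 with HGF (adjusted p = 8.71e-05). It was higher by 0.54 with PD and by 0.56 with UO (adjusted p of 0.000287 and 0.000483). LAMB1, a beta chain of those laminins, was higher by 0.60 ± 0.06 with PD and by 0.65 ± 0.06 with UO. With HGF it read -0.46 (adjusted p = 5.46e-06). CCN2, a matricellular protein that binds integrins, fell by 1.34 ± 0.10 with HGF and was higher by 0.81 ± 0.10 with PD and 0.82 ± 0.11 with UO. A second CCN2 probe set also fell with HGF (-1.02, adjusted p = 0.000895), but its differences of 0.11 with PD and 0.47 with UO did not pass the threshold.

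Of 25 measured adaptors and adhesion complex genes, 11 were higher and 8 lower with HGF, against 28.0% and 27.7% of all genes. With PD 5 were higher and 14 lower (29.9% and 25.8% of all genes), and with UO 2 and 13 (26.2% and 26.3%). Their medians were -0.02, -0.23 and -0.25. ACTN1 (alpha-actinin, which crosslinks actin at adhesions) rose by 2.77 ± 0.16 with HGF and changed by -3.51 ± 0.16 with PD and -3.39 ± 0.17 with UO, while another of its probe sets moved the same way by 0.77, -0.88 and -0.84. ACTN4, its close relative, rose by 1.35 ± 0.21 with HGF and changed by -1.45 with PD and -1.40 with UO. ILK (integrin-linked kinase, which binds the ITGB1 tail), chosen after its values were seen, changed by 1.20 ± 0.07, -0.99 ± 0.07 and -0.95 ± 0.08. Other ILK probe sets are not described here, so whether any change likewise is not shown.

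VCL (vinculin, which links talin to actin) fell by 2.14 ± 0.37 with PD (adjusted p = 0.000184). It changed by 0.95 with HGF and by -1.42 with UO (adjusted p of 0.0426 and 0.00817). The HGF call was lost in several settings, among them the replicate block (adjusted p = 0.0548), and the UO call without HGF + UO replicate 2 (adjusted p = 0.0539). ZYX (zyxin, an adhesion LIM protein) fell by 1.47 ± 0.26 with UO (adjusted p = 0.000218). It changed by 1.02 with HGF and by -1.84 with PD (adjusted p of 0.00210 and 1.15e-05). SHARPIN, which holds beta1 integrins inactive, read -0.33 ± 0.12 with HGF, 0.40 ± 0.12 with PD and 0.47 ± 0.12 with UO. Its HGF call was lost without Control replicate 3 (-0.26, adjusted p = 0.0871), HGF replicate 1 (-0.26, adjusted p = 0.0847) or HGF replicate 4 (-0.30, adjusted p = 0.0648). Another SHARPIN probe set read -0.66 with HGF (adjusted p = 0.00154), 0.61 with PD and 0.72 with UO. BCAR1, a docking protein phosphorylated at adhesions, fell by 0.21 ± 0.05 with HGF, and its other probe sets read from -0.62 to -0.53. On the brightest BCAR1 probe set, the differences of 0.13 with PD and 0.09 with UO did not pass the threshold. PTK2 (focal adhesion kinase) read 0.26 ± 0.09 with PD (adjusted p = 0.0317), a call lost without HGF replicate 1, HGF replicate 2 or HGF + PD replicates 1, 2 or 4, taken 1 at a time, after median centring and with the replicate number as a block (adjusted p = 0.0587). Its 6 probe sets disagreed, with PD differences from -0.50 to 0.42. DAB2, an endocytic adaptor of ITGB1, read 0.42 ± 0.13 with UO (adjusted p = 0.0108), a call lost without HGF + UO replicate 3 (0.33, adjusted p = 0.0660). With PD it read 0.39 (adjusted p = 0.00986). With HGF it read -0.30 (adjusted p = 0.0436), a call lost in several settings, among them without HGF replicate 1 (-0.22, adjusted p = 0.138). Another DAB2 probe set read -0.64 with HGF, 0.49 with PD and 0.81 with UO.

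Among 11 measured hemidesmosome and tetraspanin partners, 4 were higher and 5 lower with HGF (28.0% and 27.7% of all genes), 1 and 7 with PD (29.9% and 25.8%), and 2 and 6 with UO (26.2% and 26.3%). Their medians were 0.09, -0.40 and -0.18. COL17A1, the transmembrane collagen that binds ITGB4 and ITGA6 in hemidesmosomes, rose by 2.82 ± 0.09 with HGF and changed by -3.13 ± 0.09 with PD and -3.11 ± 0.09 with UO (adjusted p of 3.32e-12, 1.36e-12 and 3.46e-12). PLEC (plectin, which ties the ITGB4 tail to keratin) changed by 1.68 ± 0.18, -2.37 ± 0.18 and -2.32 ± 0.19, but another PLEC probe set stayed at 0.02, -0.05 and -0.03. BSG (basigin, a membrane protein that associates with integrins) fell by 1.06 ± 0.12 with HGF and was higher by 0.79 ± 0.12 with PD and 0.85 ± 0.13 with UO. DST (dystonin, a hemidesmosomal plakin) read -0.69 ± 0.17 with HGF, -0.82 with PD (adjusted p = 0.000789) and 0.20 with UO (adjusted p = 0.400). Its probe sets ranged from -1.15 to 1.31 with HGF, from -1.61 to 0.77 with PD and from -1.31 to 1.08 with UO. CD81, a tetraspanin, read 0.55 ± 0.18 with UO (adjusted p = 0.0201). That call was lost without HGF replicate 1 (0.44, adjusted p = 0.0606), HGF + UO replicate 1 (0.51, adjusted p = 0.0644) or HGF + UO replicate 3 (0.49, adjusted p = 0.0743). Another CD81 probe set read 0.16 with UO and did not pass the threshold (adjusted p = 0.197).

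**Figure D5:**
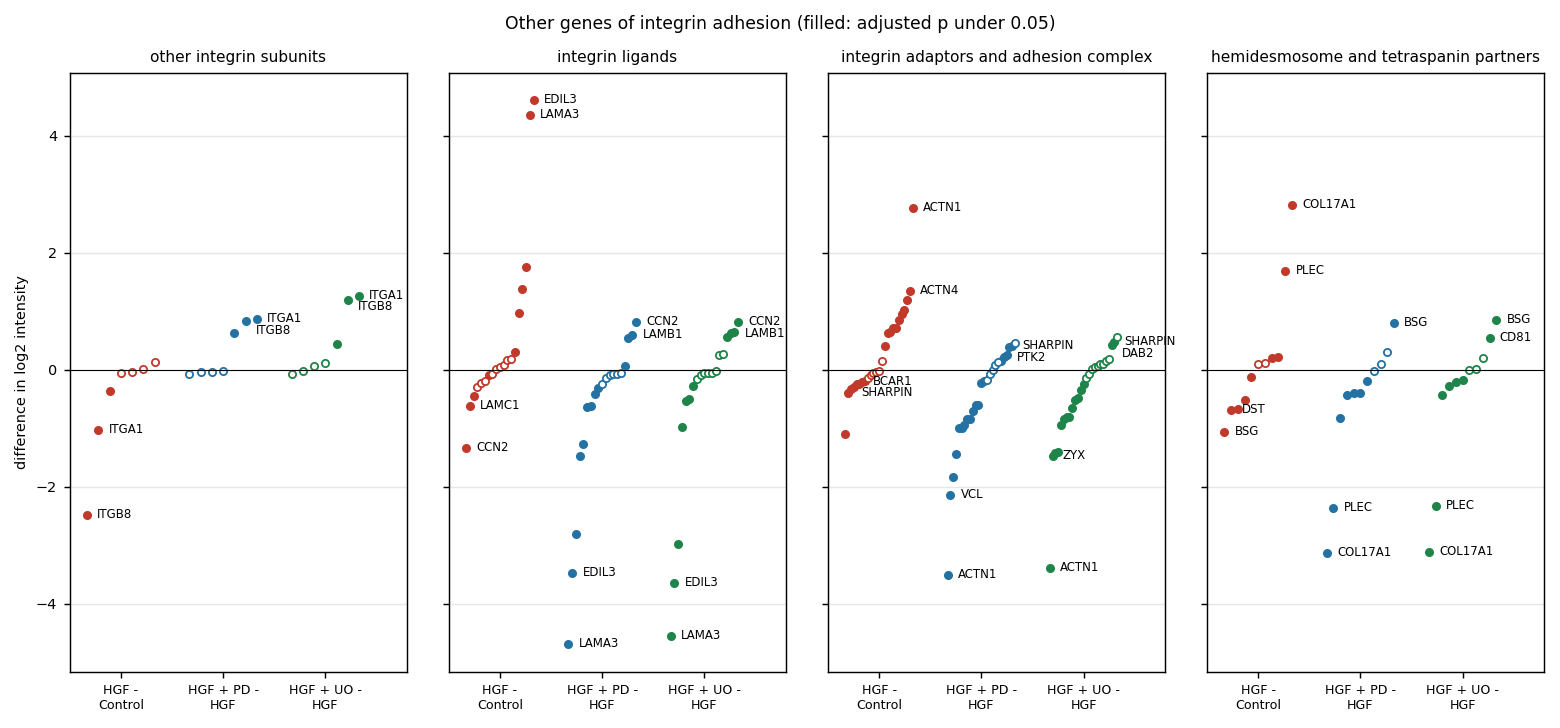
Difference in log2 intensity (y axis) of each measured gene in 4 lists around the integrins, for HGF against Control (red), HGF + PD against HGF (blue) and HGF + UO against HGF (green); filled points have an adjusted p under 0.05, and the labelled genes follow the naming rule. LAMA3 at 4.35, ACTN1 at 2.77 and COL17A1 at 2.82 stand high with HGF and lie at -4.69, -3.51 and -3.13 with PD, while ITGB8 and ITGA1 lie below 0 with HGF and above it with either inhibitor.

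The genes whose pattern was most like each subunit were found by Pearson's r of log2 intensity over the 15 arrays among 10279 other genes, 1 probe set each. All genes that differ between the same 4 groups share that structure, so the values are a description. ITGA6 was closest to ELK3, an ETS transcription factor (r = 0.997), ATP2B4, a plasma membrane calcium pump (0.997), and TFPI2, a protease inhibitor (0.997). For ITGB1 the nearest were NEDD4, a ubiquitin ligase (0.996), S100A2, a calcium-binding protein (0.996), and DSG3, a desmosomal cadherin (0.996). The nearest to ITGB3 were PLP2, a membrane protein (0.997), RGS2, a regulator of G protein signalling (0.996), and again S100A2 (0.996). S100A2 rose by 6.34 with HGF, where ITGB1 rose by 1.30 and ITGB3 by 2.10.

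ITGA3 was closest to LMNA, which encodes nuclear lamins (0.995), FLNA, the actin crosslinker filamin (0.994), and RNF19B, a ubiquitin ligase (0.993). ITGB4 was closest to SLC5A6, a vitamin transporter (0.991), PLXNA2, a semaphorin receptor (0.990), and CAPNS1, a calpain subunit (0.987). ITGA2, which lay below Control with the inhibitors, was closest to OSBPL3, a lipid-binding protein (0.983), CDH1, the cadherin of epithelial junctions (0.981), and SBSN (0.981), all of which changed up with HGF and farther down with the inhibitors. CDH1, for example, read 0.60 with HGF, -1.29 with PD and -1.26 with UO.

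The likeness was lowest for ITGAV and ITGB6. ITGAV was closest to NIPAL1 (0.977), FMR1, an RNA-binding protein (0.961), and PDLIM1, an actin-associated LIM protein (0.959). ITGB6 was closest to OXR1 (0.974), C9H17orf58 (0.971) and STAT3, a transcription factor activated by cytokine receptors (0.967). STAT3 read -0.23 with HGF, -0.83 with PD and -0.51 with UO, beside -0.20, -1.92 and -1.47 for ITGB6.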

How the data were processed

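Total RNA of 15 cultures was labelled with biotin and hybridised to 1 array each. The deposited values are linear probe set intensities that the authors made with GCRMA, per the submitters' processing notes, with its version not given in the sources used here. GCRMA subtracts a background estimated from probe sequence, so changes of dim probe sets depend on that estimate. Intensities ran from 1.97 to 104385. The deposited intensities were put on a log2 scale with no further scaling, and 111 control probe sets were left out.

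Probe sets at a log2 of at least 4 on at least 3 arrays were kept (24904, 58.0%). Symbols came from the platform annotation, which gives 29254 probe sets 1 symbol, 439 several and leaves 13231 unlisted. All 8 member symbols are in the RefSeq gene table. Outside the members, a gene stands for its probe set with the highest mean.

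The model was limma 3.58.1 under R 4.3.3 (lmFit with 1 mean per group over all 15 arrays, eBayes with a variance trend), and every adjusted p-value with no other test named comes from this fit (Benjamini-Hochberg, threshold 0.05). The procedure was tested on simulated data. Arrays have no read depth, and their number limits the precision. No arrays were near-identical.

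Members and lists were chosen with earlier results of these data known. All member probe sets are described. Of each other list, up to 2 genes each way per comparison were named, by size of change among called genes with no overlap between the arrays of both groups, and 3 genes by r for each member. Alternatives were 2 filters, 2 scalings, a pseudocount of 32, no trend, 2-group fits, a replicate block and leaving out each array.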

Additional observations from a re-analysis of the deposited data

Results flagged for a closer look

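Of 69 groups of 4 arrays of a member probe set, 5 held an array whose gap to its nearest neighbour took up more of the group's range than Dixon's critical value for 4 samples allows. Chance gives about 1 in 20.

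ITGB6 (CfaAffx.15538.1.S1_at) was lowest on HGF replicate 1, at 12.18 against 12.37 to 12.38 on the other HGF arrays (ratio 0.96), and the small fall of ITGB6 with HGF missed the threshold without this array (-0.15, adjusted p = 0.0803, limma). ITGB3 (Cfa.3641.1.S1_s_at) was lowest on HGF + PD replicate 1 (ratio 0.956), where 8.72 stood against 8.75 on each of the others, a gap small beside the change of 2.10 with HGF. The dim ITGAV probe set CfaAffx.22655.1.S1_at was lowest on HGF replicate 4, at 4.14 against 4.30 to 4.31 (ratio 0.95), and highest on HGF + PD replicate 1, at 4.48 against 4.28 to 4.30 (ratio 0.904). ITGAV probe set CfaAffx.22613.1.S1_s_at, below the filter, was highest on HGF replicate 2, at 2.86 against 2.78 to 2.79 (ratio 0.889).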

How the results depend on the processing

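In each of the 5 group comparisons, the number of integrin probe sets past the threshold stayed within 1.5 times its value in every setting run. For HGF against Control (13) it was 13 in each planned setting and 12 to 13 with 1 array left out. For HGF + PD against HGF (14) it was 14 to 15 and 14 to 15, and for HGF + UO against HGF (14) it was 14 throughout. For HGF + PD against Control (9) it was 8 to 9 and 8 to 10, and for HGF + UO against Control (6) it was 6 to 7 and 5 to 7. Of 1394 member values under an alternative, 0 that were called changed sign, and 32 that were not called did. Differences between probe sets of the same gene (18 of 30 passed) numbered 18 after quantile normalization and with 32 added, 17 of them shared in each case. With 1 array left out they numbered 0 to 19, with 0 for each HGF and HGF + UO array, since too few HGF + UO comparisons can then pass, and 18 to 19 for each other array. Without the pairs to probe sets dim in Control (mean log2 under 5), an alternative chosen after seeing the data, they numbered 0 of 24. A sign-flip test paired by replicate number cannot reach a p under 0.05 for them. Signal over background limits the dim probe sets, whose size of change depends on GCRMA.

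The replicate numbers gave no clear pairing of the arrays. Of 21 same-number pairs, 8 had a correlation of deviations over 0.1, with a range from -0.25 to 0.41. Their median was 0.05, beside 0.01 for different-number pairs, and 5 of 15 arrays correlated best with their own number. Whether a part of the arrays was paired was not tested. With the replicate number as a block, 13, 14, 14, 9 and 7 integrin probe sets passed in the 5 comparisons above, the added one being ITGA6 for HGF + UO against Control (0.26, adjusted p = 0.0211, limma).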

Other observations

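Within the HGF + UO group, replicate 2 was the lowest array for 10 of the 18 tested integrin probe sets, where it was lowest for 43.9% of all probe sets kept. In the HGF + PD group, replicate 1 was lowest for 8 of 18 (33.8% of all), and in Control replicate 3 was lowest for 8 of 18 (34.3% of all). HGF + UO replicate 2 also had the highest array median, 42.5, and held the high reading of the dim ITGB6 probe set (5.92) and of the dimmer ITGB1 probe set (9.23).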
